A study of Sus scrofa with 23 samples.

Results

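Glycogen is the branched glucose store of muscle, and the genes described here encode enzymes that build and break it down together with a subunit that directs a phosphatase to it. A gene was included where a non-control array probe carried its symbol as the gene name or gave it in parentheses in the probe's description. Of the 9 genes looked for, 4 had such probes: PGM1 with 1, GYS1 with 1, UGP2 with 5 and PPP1R3C with 6, which made 13 probes of the 43603 on the array. No probe met the rule for PYGM, PHKG1, PHKA1, GBE1 or GYG1, so those genes were not analysed by symbol, and a few probes that name such enzymes only in words are given at the end.

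RNA came from the Longissimus muscle of the back of 23 pigs at 115 kg body weight, with 1 array for each pig. Residual feed intake (RFI) is the feed an animal eats beyond what its growth and maintenance account for, and the pigs belonged to a line with low RFI or a line with high RFI. The low-RFI group (7 pigs, strain RFIneg) and the high-RFI group (8 pigs, strain RFIpl) ate ad libitum. The restricted high-RFI group (8 pigs, RFIplR) was given feed at the level of the low line, so that low-RFI against restricted pigs compares the lines at equal feeding and restricted against high-RFI pigs compares feeding levels within 1 line.

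In muscle, phosphoglucomutase interconverts glucose 6-phosphate and glucose 1-phosphate, and UDP-glucose pyrophosphorylase turns glucose 1-phosphate into UDP-glucose, the donor of every glucose unit added to glycogen. Glycogen synthase lengthens the chains on a glycogenin core and the branching enzyme makes the branch points, while glycogen phosphorylase, switched on by phosphorylase kinase, releases glucose 1-phosphate for contraction. Protein phosphatase 1, held on the glycogen particle by targeting subunits, removes phosphate from both synthase and phosphorylase, which activates the former and inactivates the latter.

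Between 41.7% and 79.0% of the probes on an array lay well above background, with group medians of 69.3% in low-RFI, 67.97% in high-RFI and 67.2% in restricted pigs. Slide 3, with 4 arrays from all 3 groups, had the lowest median of 50.1%. Of 11 skeletal muscle fibre markers 9 had a probe, and all 9 were above background on every array. Bulk RNA cannot tell fewer cells of a type from less RNA per cell. Levels below are log2 signals minus the array's 75th percentile, written as log2 levels. Differences are log2 differences between group means, each with its standard error (SE) or 95% interval from limma, and a probe was called at an adjusted p under 0.05 over 27788 probes. All 13 probes were above background on all 23 arrays and none was saturated. A level of one probe cannot be compared with that of another.

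The probes are 60 bases long with 35% to 55% G and C. A probe each of GYS1, UGP2 and PPP1R3C and a pair of overlapping UGP2 probes are shown, because they tell which measurements are separate. The GYS1 probe and UGP2 A_72_P427819 have no stop codon in any of 3 forward frames, and the PPP1R3C probe has none in 1 of them.

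GYS1 A_72_P442869: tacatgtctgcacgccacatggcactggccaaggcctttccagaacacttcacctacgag
UGP2 A_72_P427819: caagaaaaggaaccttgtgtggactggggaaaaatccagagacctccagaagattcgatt
PPP1R3C A_72_P261022: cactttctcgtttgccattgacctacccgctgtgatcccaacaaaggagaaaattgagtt
UGP2 A_72_P165756, bases 1 to 30: gcctcaATAATGATCACTTTGAACTGcttg
UGP2 A_72_P606238, bases 1 to 30: cggaggcctcATAATGATCACTTTGAACTG

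The capitals mark 20 bases that both stretches hold. Over their full length A_72_P165756 and A_72_P606238 share a run of 50 bases, so they read nearly the same piece of UGP2 mRNA and are not separate evidence. Neither has a forward frame without a stop codon. Beyond the bases shown, both hold AATAAA, the usual polyadenylation signal, which no other probe of the 4 genes held on either strand. Of all 43603 probes 9.6% held those letters on the printed strand and 13.4% on either strand.

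None of the 13 probes was called in any comparison by limma. The background was low: 34 of 27788 probes (0.122%) were called for low-RFI minus high-RFI pigs, 1 (0.0036%) for restricted minus high-RFI pigs and 45 (0.162%) for low-RFI minus restricted pigs. At an unadjusted p under 0.05, 4 of the 13 probes passed for low-RFI minus high-RFI pigs, all with a negative difference, where 11.1% of all probes passed and 3.92% did so with a negative difference. In the restricted minus high-RFI comparison 0 of 13 passed against 9.76% of all probes, and for low-RFI minus restricted pigs 5 of 13 passed, all with a negative difference, against 10.2% of all probes and 4.61% in that direction. Every probe that passed at that level was a UGP2 probe. The smallest adjusted p among the 13, from limma, was 0.305, 0.58 and 0.0753 in these 3 comparisons.

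The estimates for low-RFI pigs were below 0 against both other groups for all 13 probes, whereas 55.3% of all probes were above 0 against high-RFI and 54.7% against restricted pigs. Taking the brightest probe of each gene, the median difference was -0.16 for low-RFI minus high-RFI pigs and -0.20 for low-RFI minus restricted pigs, beside medians over all probes of 0.02 in both. For restricted minus high-RFI pigs 12 of 13 estimates were above 0, against 53.1% of all probes, with a median of 0.07 over the 4 genes and 0.01 over all probes. These comparisons share the low-RFI or the high-RFI pigs, and probes of 1 gene share a target, so the counts are not independent. The signs depended on the background correction: with a normexp fit on mean and background signals, the low-RFI minus restricted differences of PGM1, UGP2 and PPP1R3C turned positive. That fit estimated a background SD above 100 intensity units on 5 of 23 arrays, 3 of them of restricted pigs, against a median of 1.67. The signs of PGM1 and GYS1, with 1 probe each, also depended on single pigs. Without low-RFI pig 4 they gave 0.033 and 0.086 for low-RFI minus high-RFI pigs, and 0.049 and 0.047 for low-RFI minus restricted pigs.

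**Figure D1:**
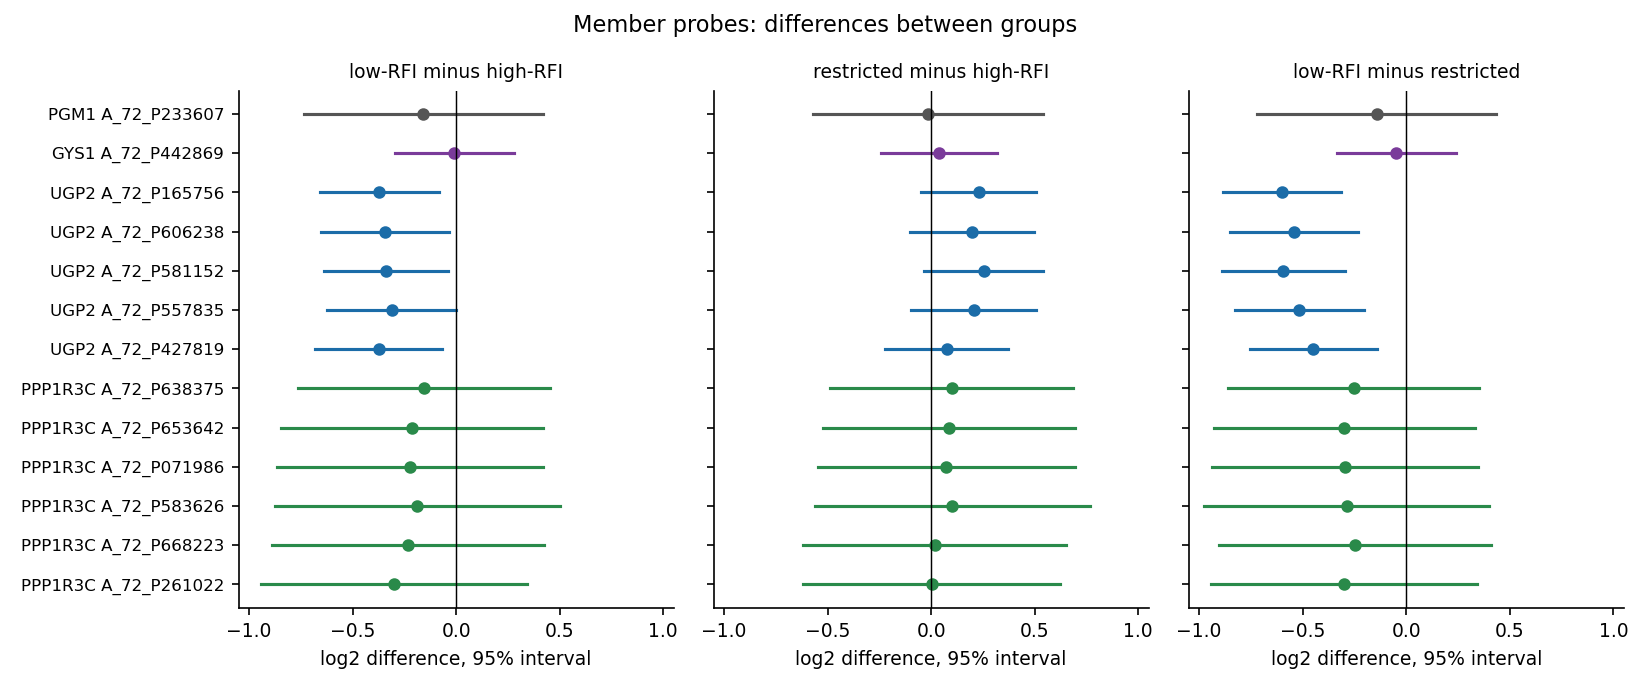
Log2 difference (horizontal axis) with its 95% limma interval for each of the 13 probes in the 3 comparisons, coloured by gene. The 5 UGP2 intervals lie left of 0 for low-RFI minus restricted pigs, while the intervals of PGM1, GYS1 and all 6 PPP1R3C probes cross 0 in every panel.

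PGM1 encodes the enzyme that links glucose 6-phosphate with glucose 1-phosphate, the step shared by synthesis and breakdown. Its probe A_72_P233607 had log2 levels of 7.20 at the lowest, 8.77 at the median and 8.93 at the highest in low-RFI pigs. In high-RFI pigs these were 7.91, 8.51 and 8.90, and in restricted pigs 7.35, 8.74 and 8.997. The groups overlapped, and the low-RFI group had the widest spread, with an SD of 0.78 against 0.30 in high-RFI and 0.56 in restricted pigs. The mean difference was -0.16 (95% interval -0.73 to 0.42, adjusted p = 0.895 by limma) for low-RFI minus high-RFI pigs. It was -0.02 (-0.57 to 0.54, adjusted p = 0.995 by limma) for restricted minus high-RFI pigs and -0.14 (-0.72 to 0.43, adjusted p = 0.917 by limma) for low-RFI minus restricted pigs.

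The PGM1 probe set 3 pigs apart from the rest. Low-RFI pig 4, low-RFI pig 5 and restricted pig 2 had levels of 7.20, 7.23 and 7.35, and the other 20 pigs lay between 7.91 and 8.997. A second probe, A_72_P108441, is described as phosphoglucomutase 1 and names the same source mRNA, but it carries no symbol and so lay outside the rule. In those 3 pigs it read 7.06, 7.36 and 7.33, within the range of 6.33 to 7.67 in the other 20. The first probe minus the second was between -0.13 and 0.14 in the 3 pigs and between 1.10 and 1.95 in the other 20, so the pigs differed in the balance of the probes while the second probe did not set them apart. The 3 pigs were hybridised on slide 5 and slide 2. Over 23 pigs, with group means removed, the correlation of the probes was 0.23. The pigs' sequence under the PGM1 probe was not examined, so whether its low values, and the group means that hold them, reflect less PGM1 mRNA was not tested.

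The second phosphoglucomutase probe gave another picture of the groups. Its mean log2 level was 7.29 ± 0.22 (SD, n = 7) in low-RFI, 6.88 ± 0.31 (SD, n = 8) in high-RFI and 7.08 ± 0.21 (SD, n = 8) in restricted pigs. The low-RFI minus high-RFI difference was 0.41 (SE 0.13, adjusted p = 0.232 by limma), opposite in sign to that of the PGM1 probe, and it was not called. The restricted minus high-RFI difference was 0.20 (adjusted p = 0.657 by limma) and the low-RFI minus restricted difference 0.22 (adjusted p = 0.602 by limma). A direction for PGM1 mRNA therefore depended on which probe was read, and on the PGM1 probe also on low-RFI pigs 4 and 5. Leaving out pig 4 turned that probe's low-RFI minus high-RFI difference to 0.033, and leaving out pig 5 turned it to 0.027. Its median was also higher in low-RFI pigs, at 8.77 against 8.51 in high-RFI pigs.

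**Figure D2:**
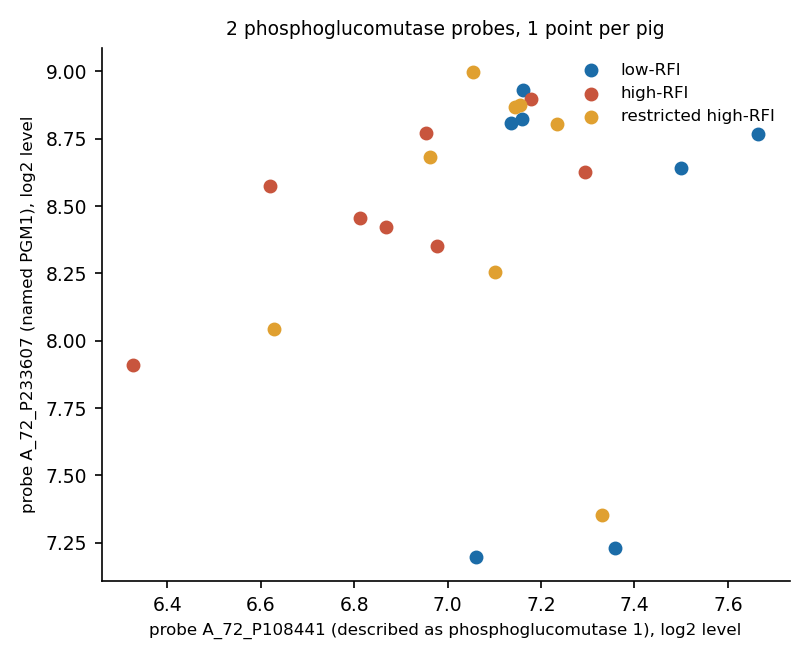
Log2 level of the PGM1 probe A_72_P233607 (vertical axis) against that of the probe described as phosphoglucomutase 1, A_72_P108441 (horizontal axis), 1 point per pig coloured by group. In 3 pigs the PGM1 probe lies at 7.20 to 7.35, apart from the 20 others at 7.91 to 8.997, while the second probe lies within the common range.

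UGP2 encodes UDP-glucose pyrophosphorylase, which makes the glucose donor for glycogen synthase, and on brightest probes its differences were larger than those of the other 3 genes in all comparisons. On its brightest probe, A_72_P165756, low-RFI pigs had log2 levels of 4.004 at the lowest, 4.19 at the median and 4.55 at the highest. High-RFI pigs had 4.19, 4.54 and 5.08, and restricted pigs 4.32, 4.85 and 5.26. Restricted pigs were the highest and low-RFI pigs the lowest as groups: 7 of 8 restricted pigs lay above every low-RFI pig and 5 of 7 low-RFI pigs below every restricted pig. The 1 restricted pig within the low-RFI range was restricted pig 7, which was the lowest of its group on all 5 UGP2 probes. High-RFI pigs lay between, with 4 of 7 low-RFI pigs below all of them, and their range overlapped with both other groups. On the other 4 probes 6 or 7 restricted pigs lay above every low-RFI pig. There 1 to 5 low-RFI pigs lay below every restricted pig, with 1 on the overlapping A_72_P606238, and 1 to 3 below every high-RFI pig.

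The means on this probe were 4.24 ± 0.21 (SD, n = 7) in low-RFI, 4.61 ± 0.29 (SD, n = 8) in high-RFI and 4.84 ± 0.29 (SD, n = 8) in restricted pigs. The low-RFI minus restricted difference was -0.60 (SE 0.14, 95% interval -0.89 to -0.31), with an unadjusted p of 0.000244 and an adjusted p = 0.0753 by limma, which missed the threshold. The low-RFI minus high-RFI difference was -0.37 (-0.66 to -0.08, adjusted p = 0.305 by limma), and the restricted minus high-RFI difference was 0.23 (-0.05 to 0.51, adjusted p = 0.608 by limma). The other 4 probes gave -0.45 to -0.59 for low-RFI minus restricted pigs, with adjusted p from 0.102 to 0.288 by limma. They gave -0.31 to -0.37 for low-RFI minus high-RFI pigs and 0.08 to 0.25 for restricted minus high-RFI pigs.

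The UGP2 probes moved together from pig to pig. With group means removed, the correlation between any 2 of them over 23 pigs ran from 0.87 to 0.97, with a median of 0.92 over 10 pairs. That includes A_72_P427819, the dimmest, whose stretch is unlike the overlapping pair. On it low-RFI pigs had log2 levels of 0.58, 0.90 and 1.16 at the lowest, the median and the highest, high-RFI pigs 0.85, 1.13 and 1.83, and restricted pigs 0.90, 1.27 and 1.78. High-RFI pig 3, restricted pig 2 and low-RFI pig 3 were the highest of their groups on all 5 probes, and low-RFI pig 7 and high-RFI pig 5, both on slide 3, were the lowest.

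**Figure D3:**
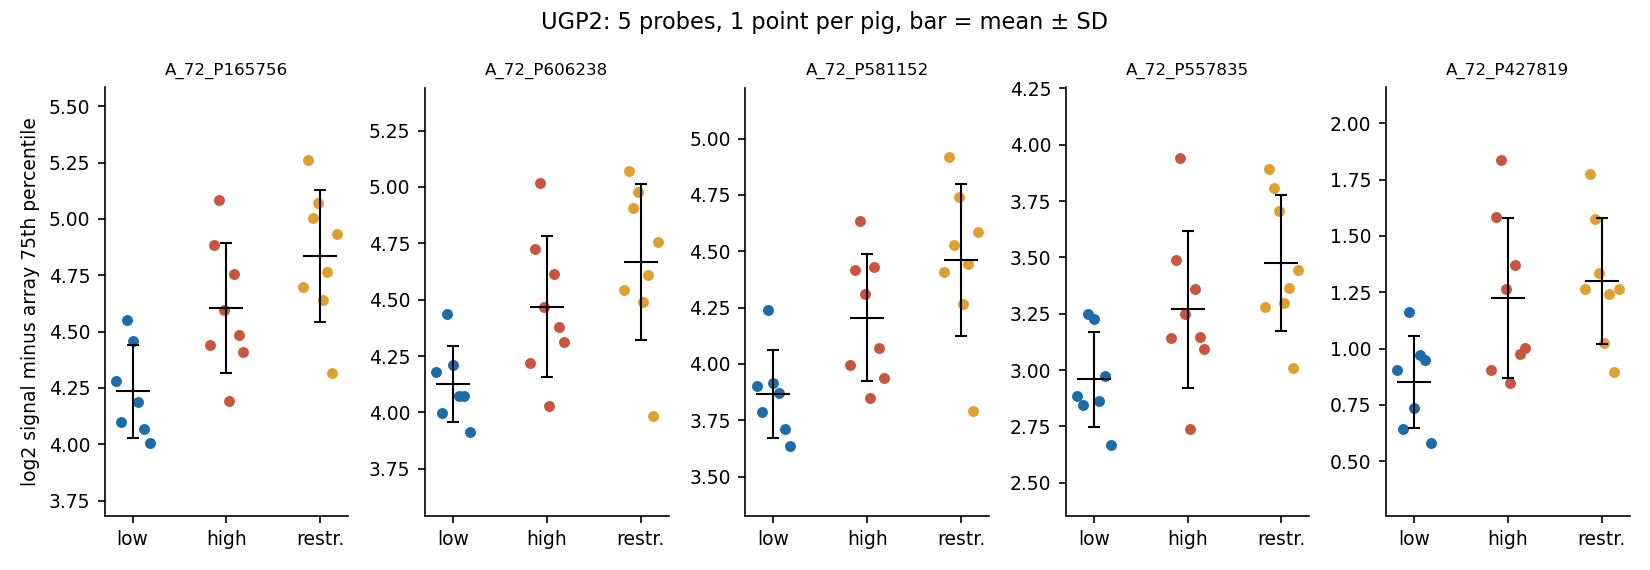
Log2 level (vertical axis, each panel with the same span) of the 5 UGP2 probes in low-RFI, high-RFI and restricted high-RFI pigs, 1 point per pig, with bars for mean ± SD. Each panel has the low-RFI mean lowest and the restricted mean highest with overlapping ranges, in the scaling shown; under the normexp fit on mean and background signals the first probe's low-RFI minus restricted difference was 0.07.

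The UGP2 differences had the same sign on both scan days: low-RFI minus restricted pigs on A_72_P165756 gave -0.66 among arrays of day 1 and -0.55 among those of day 2. Low-RFI minus high-RFI pigs gave -0.35 and -0.40, and restricted minus high-RFI pigs 0.31 and 0.15. Within slides the low-RFI minus restricted difference was negative on 5 of 6. The call turned on small choices. Without restricted pig 7 the difference was -0.67 with an adjusted p = 0.0328 by limma, and 3 UGP2 probes were called, and with trended, robust variances 1 probe was called at an adjusted p = 0.0488 by limma. Under the normexp fit on mean and background signals it was 0.07 (adjusted p = 0.909 by limma), and that setting also moved the median of all probes to 0.21 for restricted minus high-RFI and -0.14 for low-RFI minus restricted pigs. A normexp fit on negative controls gave -0.59.

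Markers of cell types were read beside these values. Of 10 adipocyte markers listed, 10 had a probe and 9 were kept, and none was called in any comparison. Their median difference was -0.53 for low-RFI minus high-RFI pigs, -0.09 for restricted minus high-RFI pigs and -0.35 for low-RFI minus restricted pigs. The UGP2 differences on its brightest probe were -0.37, 0.23 and -0.60 in the same order. The first and the last had the sign of the adipocyte medians, and the second had the opposite sign. The mean log2 level over the adipocyte markers ranged from 1.09 to 2.39 in low-RFI, from 0.94 to 3.22 in high-RFI and from 1.17 to 2.66 in restricted pigs. Leukocyte markers, 6 of 8 with a probe and 5 kept, had medians of -0.37, -0.24 and -0.12, and 2 were above background on all arrays. Skeletal muscle fibre markers had medians of 0.15, 0.06 and 0.10 in the same order, and slow fibre markers -0.05, 0.05 and -0.02. Endothelial markers had -0.18, -0.13 and -0.01, and fibroblast markers -0.06, -0.13 and 0.02. Of the 10 adipocyte markers, 8 were above background on all arrays. AQP7 was above background on 21 arrays and PLIN1, which coats lipid droplets, on only 3. The part of these cells in the UGP2 values was not tested.

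GYS1 encodes muscle glycogen synthase, the enzyme that lengthens the chains. Its probe A_72_P442869 had log2 levels of -1.52, -0.85 and -0.56 at the lowest, the median and the highest in low-RFI pigs. High-RFI pigs had -1.24, -1.002 and -0.58, and restricted pigs -1.16, -0.94 and -0.53. The 3 ranges nearly coincided, apart from low-RFI pig 4 and low-RFI pig 7, which lay below every pig of the other groups. The difference was -0.01 (95% interval -0.30 to 0.28, adjusted p = 0.989 by limma) for low-RFI minus high-RFI pigs. It was 0.04 (-0.24 to 0.32, adjusted p = 0.971 by limma) for restricted minus high-RFI pigs and -0.05 (-0.34 to 0.24, adjusted p = 0.95 by limma) for low-RFI minus restricted pigs. All 3 intervals lay within -0.34 to 0.32. The pooled within-group SD was 0.27, at the 42.3rd percentile of kept probes.

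PPP1R3C encodes a targeting subunit that holds protein phosphatase 1 on glycogen, and it was the gene with the widest spread between pigs. On its brightest probe, A_72_P638375, low-RFI pigs had log2 levels of 4.94, 5.06 and 6.52 at the lowest, the median and the highest. High-RFI pigs had 4.92, 5.37 and 6.37, and restricted pigs 4.66, 5.76 and 6.41. Every group held both low and high pigs: 4 of 8 restricted pigs, 2 of 8 high-RFI pigs and 1 of 7 low-RFI pigs lay above 5.85. High-RFI pig 6 lay just under that level at 5.848, so the counts depend on where the cut is set. The within-group SD of the 6 probes was 0.60 to 0.68, at the 90.5th to 94.2nd percentile of kept probes, whose median was 0.30.

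The group means did not separate beyond this spread. The low-RFI minus high-RFI difference was -0.16 (SE 0.29, 95% interval -0.76 to 0.45, adjusted p = 0.904 by limma). For restricted minus high-RFI pigs it was 0.10 (-0.49 to 0.69, adjusted p = 0.961 by limma), and for low-RFI minus restricted pigs -0.25 (-0.86 to 0.35, adjusted p = 0.833 by limma). Over the 6 probes the estimates ran from -0.16 to -0.30, from 0.00 to 0.10 and from -0.25 to -0.30. The spread was shared by the probes to a high degree, with correlations of 0.984 to 0.998 over 15 pairs with group means removed, so all 6 ranked the pigs much alike. Low-RFI pig 6 was the highest and low-RFI pig 7 the lowest of the low line on all 6, and restricted pig 8 was the highest and restricted pig 4 the lowest of its group on all 6.

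On the brightest PPP1R3C probe the differences had opposite signs on the 2 scan days. Low-RFI minus restricted pigs gave -0.80 among the arrays of day 1 and 0.42 among those of day 2. Restricted minus high-RFI pigs gave 0.48 and -0.29, and low-RFI minus high-RFI pigs -0.32 and 0.14. The other PPP1R3C probes also changed sign in the first 2 of these comparisons. In the last, A_72_P261022 gave -0.47 and -0.01, with the same sign on both days, and A_72_P668223 gave -0.37 and 0.02. Whether the days differ was not tested. Each day held 4 pigs of a group, or 3 low-RFI pigs on day 2, and all 3 groups.

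**Figure D4:**
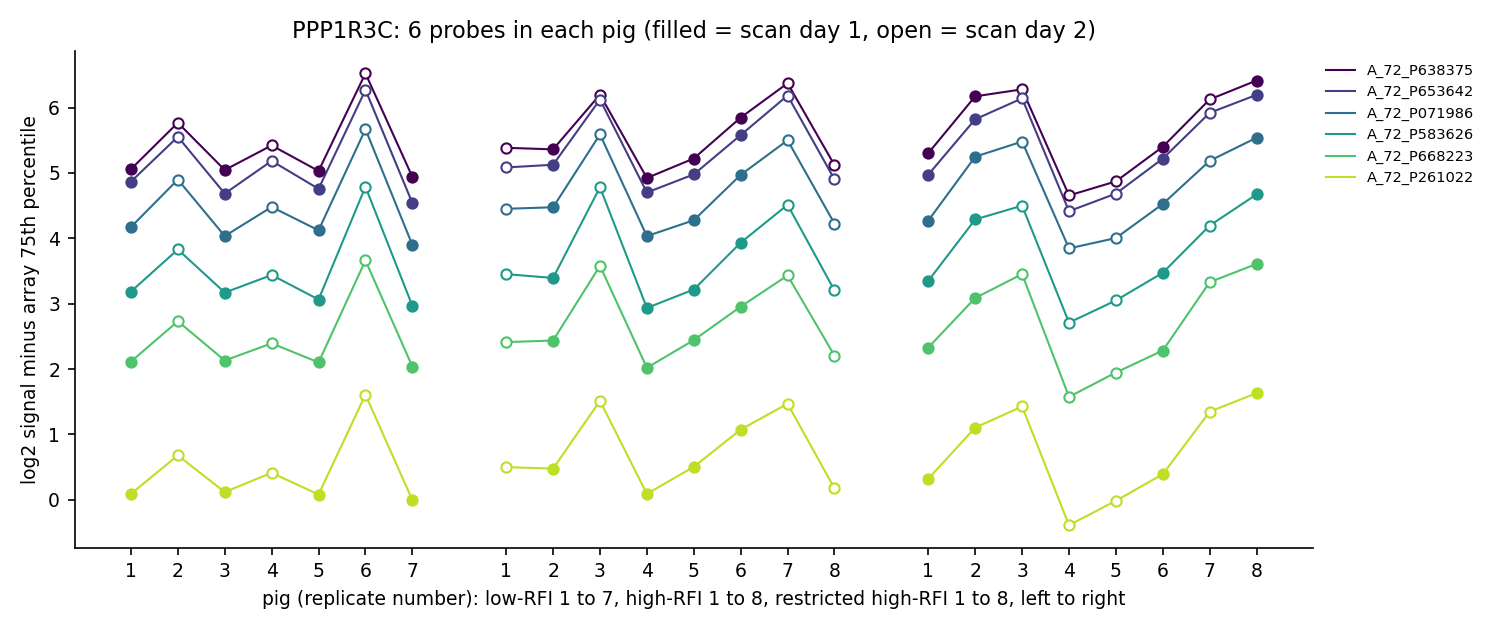
Log2 level (vertical axis) of the 6 PPP1R3C probes in each of the 23 pigs (horizontal axis), with filled points for scan day 1 and open points for day 2. Lines join the values of 1 probe and stand for no order among pigs. The 6 profiles run in parallel, and all 3 groups span a like range.

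Correlations between the genes were weaker than those between probes of UGP2 or of PPP1R3C. With group means removed, the correlation of UGP2 with PGM1 over 23 pigs was -0.48 to -0.32 across the 5 UGP2 probes. GYS1 had correlations of 0.19 to 0.45 with the UGP2 probes, of 0.21 with PGM1 and of 0.32 with the brightest PPP1R3C probe, and UGP2 and PPP1R3C on their brightest probes had 0.11. All of these points share arrays and slides, and the values are descriptions. Of 3735 other genes with a symbol, those most like GYS1 were SLC4A4, a bicarbonate cotransporter (r = 0.78, 0.71 with slide means also removed), HFM1 (0.77 and 0.60) and B3GAT3, a glucuronyltransferase of proteoglycan linkers (0.77 and 0.68).

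Likeness was also read for the other genes, a choice made after their values were seen. UGP2 was most like PDHA1, a subunit of pyruvate dehydrogenase (r = 0.78), C2H19orf70 (0.76) and ARPC1A, an actin-branching subunit (0.75). PPP1R3C was most like FRY (0.86), XIRP1, an actin-binding protein of muscle (0.82), and the thiamine transporter SLC19A2 (0.81). These stayed at or above 0.72 for UGP2 and 0.76 for PPP1R3C without the 2 pigs farthest from the median. PGM1 was most like CLDN1, at 0.68 with all pigs and 0.47 without the 2 farthest, so that likeness rested on them. MYB had 0.645 with all pigs and 0.635 without the same 2 pigs, which were the farthest on the PGM1 probe. PRDX4 had 0.64 and 0.53. Those 2 were low-RFI pig 4 and restricted pig 2. Low-RFI pig 5, also set apart on that probe, stayed in, so its part in these likenesses was not tested.

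Other genes of the pathway were taken from 5 lists with 51 genes, of which 20 had a probe and all 20 had 1 that was kept, with 63 kept probes in all. No gene passed by limma in any comparison. At an unadjusted p under 0.05 on the brightest probe, 2 genes passed higher and 0 lower for low-RFI minus high-RFI pigs, 2 higher and 0 lower for restricted minus high-RFI pigs, and 1 higher and 2 lower for low-RFI minus restricted pigs. Over all probes the shares higher and lower at that level were 7.19% and 3.92%, 4.95% and 4.81%, and 5.57% and 4.61%. The median difference over the 20 genes was 0.07, 0.09 and -0.02, beside 0.02, 0.01 and 0.02 over all probes.

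Among phosphatase genes, 4 of 13 listed had a probe. PPP1CB, a catalytic subunit of protein phosphatase 1, differed by 0.22 (SE 0.09, adjusted p = 0.36 by limma) for low-RFI minus high-RFI pigs on its brightest probe. Its other 9 probes gave smaller values, from -0.05 to 0.10. PPP1R2, an inhibitor subunit, differed by 0.31 (SE 0.12, adjusted p = 0.409 by limma) for low-RFI minus restricted pigs, and its other probe gave 0.24. PPP1CA, another catalytic subunit, differed by 0.16 (adjusted p = 0.617 by limma) for restricted minus high-RFI pigs.

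Among kinases and their regulators, 7 of 16 had a probe. PRKAA2, a catalytic subunit of AMP-activated protein kinase, differed by 0.22 (SE 0.11, adjusted p = 0.452 by limma) for low-RFI minus high-RFI pigs.

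Glucose entry was represented by 3 of 6 genes. HK2, the hexokinase that traps glucose in the fibre, had log2 levels of -1.999, -1.62 and -1.09 at the lowest, the median and the highest in high-RFI pigs. Restricted pigs had -1.87, -0.999 and -0.71, and low-RFI pigs -2.38, -1.42 and -0.99. Restricted pigs lay highest as a group with overlapping ranges, and the difference was 0.51 (SE 0.19, adjusted p = 0.352 by limma) against high-RFI and, for low-RFI minus restricted pigs, -0.49 (SE 0.20, adjusted p = 0.399 by limma). On the 2 scan days the restricted minus high-RFI difference was 0.58 and 0.44.

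The adrenergic genes, whose signal sets off glycogen breakdown, had probes for 4 of 6. GNAS, the stimulatory G protein, differed by 0.21 (SE 0.09, adjusted p = 0.414 by limma) for low-RFI minus high-RFI pigs on its brightest probe. Its other kept probes gave 0.07 to 0.22. For restricted minus high-RFI pigs the brightest GNAS probe gave 0.04 and the others -0.09 to 0.02, most of them negative. Of the debranching, lysosomal and isoform enzymes, 2 of 10 had a probe, PYGL and GYS2, and 0 of their brightest probes passed at an unadjusted p under 0.05. The dimmest of 4 PYGL probes had a restricted minus high-RFI difference of -0.27 (unadjusted p 0.0375, adjusted p = 0.468 by limma). Each of the brighter PYGL probes gave 0.06, opposite in sign.

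Some probes name glycogen enzymes in their description without a symbol, and these were looked at after the file annotation was read. Of 3 probes for the glycogen branching enzyme 2 were kept, and their low-RFI minus high-RFI differences were -0.42 (SE 0.18, adjusted p = 0.378 by limma) and -0.09 (adjusted p = 0.931 by limma). The 3 probes for the debranching enzyme, which removes branches during breakdown, gave 0.01, 0.35 (SE 0.13, adjusted p = 0.31 by limma) and 0.18. A dim glycogen phosphorylase probe gave 0.22 (SE 0.30, adjusted p = 0.857 by limma), glycogenin 2 gave -0.21, phosphorylase kinase beta -0.11 and 0.05, and phosphorylase kinase gamma 2 gave 0.15. None of these probes was called in any comparison.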

How the data were processed

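Cy3-labelled RNA of 23 pigs was measured on 1-colour Agilent arrays, 1 pig per array, so replicates were separate animals. The deposited spot intensity was background-subtracted and detrended by Feature Extraction 10.7.3.1, per the file headers. The deposited log2 table had a median of 0 in every column and equalled the log2 processed signal minus 1 constant per array, as a comparison with the spot values showed. It served as an alternative, as did the mean and background intensity, per the file headers. The submitters' processing notes name R 2.10.0. No genome build for the probes was found in the sources used here, so no coordinates are given.

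Log2 processed signals of 43803 non-control spots had the array's 75th percentile subtracted. Spots marked non-uniform or population outlier were set to missing, leaving 470 missing values. Spots of a probe were averaged, and the 27788 probes kept were well above background in 6 or more pigs of any group. All 3 groups entered 1 limma 3.58.1 fit under R 4.3.3, with Benjamini-Hochberg adjustment, and the scripts were tested on simulated data. The number of arrays limits the precision. Symbols came from the probes' gene names, descriptions, gene IDs and accessions, for 11049 probes. Slide and scan day came from the headers. Of the listed genes, those with the 3 smallest p in each comparison were named by their brightest probe, with the 3 genes most like GYS1. Some genes that this took are not reported here, and counts over the lists include them. The same likeness rule for PYGM had no probe to act on.

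The members, lists and alternatives were chosen with earlier results of these data known. Alternatives were other scalings, background corrections and filters, the deposited values, slide, scan day or replicate number as a block, leaving out slide 3 or each pig, 2-group fits and trended robust variances.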

Additional observations from a re-analysis of the deposited data

Results flagged for a closer look

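On 2 of the 6 PPP1R3C probes, low-RFI pig 6, on slide 4, stood apart from the other 6 low-RFI pigs by Dixon's criterion for a single extreme value. Its log2 level was 3.66 on A_72_P668223, where the next pig had 2.73, and 1.61 on A_72_P261022, where the next pig had 0.68. The gap was 0.573 and 0.576 of the group's whole range. Of 39 groups examined, 13 probes in 3 groups, these 2 passed, and chance passes about 1 in 20. Both probes read the same gene and the same pig, so they are 1 occurrence. Restricted pig 8 had 3.61 and 1.63 on these probes and high-RFI pig 3 had 3.58 and 1.51, so pigs of the other groups came close to it. Low-RFI pig 6 was the highest of all 23 pigs on every PPP1R3C probe except A_72_P261022, where restricted pig 8 was higher.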

How the results depend on the processing

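The 13 probes stayed without a call in every setting for low-RFI minus high-RFI and for restricted minus high-RFI pigs. For low-RFI minus restricted pigs 1 UGP2 probe was called with trended, robust variances (adjusted p = 0.0488 by limma), and leaving out 1 pig gave 0 to 3, with the 3 only without restricted pig 7. UGP2 was negative for low-RFI minus high-RFI pigs in all 13 alternatives and on leaving out each of 23 pigs.

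The numbers of probes called over the array, 34, 1 and 45 for low-RFI minus high-RFI, restricted minus high-RFI and low-RFI minus restricted pigs, moved more. They were 0, 0 and 0 with normexp on mean and background signals, 22, 0 and 18 without a filter on dim probes, 19, 0 and 25 with slide as a block, 18, 0 and 15 without slide 3, and 52, 0 and 76 with trended, robust variances. The deposited values gave 20 for the first and 21 for the last. Probes above background on all arrays gave 18 for the first. For restricted minus high-RFI pigs, normexp on negative controls gave 0, scan day as a block 3, and a fit of 2 groups only 0, while that 2-group fit gave 25 for low-RFI minus restricted pigs. Leaving out 1 pig gave 22 to 40, 0 to 7 and 18 to 68.

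With normexp on mean and background signals signs turned for low-RFI minus high-RFI pigs in GYS1 (0.090), GNAS (-0.026), PRKAA2 (-0.019) and PPP1R2 (-0.035). For restricted minus high-RFI pigs they turned in UGP2 (-0.63), PPP1R3C (-0.80), the probe described as phosphoglucomutase 1 (-0.62), PPP1CB (-0.73), GNAS (-0.78) and PRKAA2 (-0.71). For low-RFI minus restricted pigs they turned in PGM1 (0.45), UGP2 (0.070) and PPP1R3C (0.44). The cause was not tested. Elsewhere only values near 0 turned. GNAS gave -0.0088 for restricted minus high-RFI pigs with quantile normalization, and GYS1 gave -0.0028 with normexp on negative controls. Without slide 3, GYS1 gave 0.036 and PPP1CA -0.0195 for low-RFI minus high-RFI pigs, and PPP1R3C -0.033 for restricted minus high-RFI pigs. HK2 had no value among probes above background on all arrays.

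Leaving out 1 pig also turned signs. In the low-RFI minus high-RFI, restricted minus high-RFI and low-RFI minus restricted comparisons GYS1 ran from -0.074 to 0.086, from -0.015 to 0.091 and from -0.11 to 0.047, and PGM1 from -0.26 to 0.033, from -0.10 to 0.15 and from -0.30 to 0.049. PPP1R3C ran from -0.34 to -0.04, from -0.0094 to 0.24 and from -0.44 to -0.15, the last being -0.09 without slide 3. GNAS ran from -0.00048 to 0.084 for restricted minus high-RFI pigs and HK2 from -0.078 to 0.15 for low-RFI minus high-RFI pigs.

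Deviations from the group means of same-numbered pigs of different groups had correlations of -0.30 to 0.33 over 22 pairs, with a median of 0.05. For 154 pairs with different numbers they were -0.42 to 0.56, with a median of -0.01. The labels do not say whether the numbers pair pigs. Such correlations cannot decide it, because paired pigs need not have like RNA levels. With the replicate number as a block, 28, 0 and 20 probes over the array were called and 0 of the 13. UGP2 gave -0.61 (adjusted p = 0.0653 by limma) for low-RFI minus restricted pigs, and HK2 turned to -0.011 for low-RFI minus high-RFI pigs.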
